A study of Mus musculus with 9 samples.

Results

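The genes described here are 8 HECT-domain ubiquitin ligases, Herc1, Herc2, Herc3, Herc4, Huwe1, Ube3a, Nedd4 and Trip12, followed in ribosome-associated RNA of parvalbumin inhibitory neurons (PV INs) of hippocampal CA3/CA2. They were taken by name from the gene family, with earlier results of these data known, and Ensembl identifiers were matched to mouse symbols. All 8 were among the 15069 genes tested of 37620 listed. The mice were PV-Cre; Rpl22HA/HA, so that Cre under the parvalbumin gene switches on an HA-tagged ribosomal protein L22 in PV INs, and ribosomes with their mRNAs were immunoprecipitated from CA3/CA2 tissue. Lentivirus carrying a non-target shRNA (shNT) or an shRNA against Ablim3 (shRNA) had been injected into the dentate gyrus (DG) of 2-month-old mice 2 weeks earlier, to ask which genes of PV INs change when mossy fiber inputs onto them increase. There were 5 shNT samples and 4 shRNA samples, each pooled from 6 mice of both sexes, so the p-values below measure the spread between pools.

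HECT ligases are the enzymes of the ubiquitin pathway that take ubiquitin from an E2 enzyme onto a cysteine of their own before passing it to the substrate protein. They differ from RING ligases, which bring E2 and substrate together without holding ubiquitin themselves. In the HERC family the HECT domain is joined to repeats like those of RCC1, a nucleotide exchange factor for Ran, and Herc1 and Herc2 are its giant members. Ube3a is imprinted in neurons, where the maternal copy is the active one, and its loss causes Angelman syndrome. Huwe1, Trip12, Herc1 and Herc2 are linked to intellectual disability, Nedd4 is the founder of a family of ligases that recognise substrates through WW domains, and Herc3 and Herc4 are small HERC proteins.

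The coding sequence around the catalytic cysteine is shown because this residue is what makes the genes a family. Each line gives 42 bases of the transcript with the longest coding sequence in the NCBIM37 GENCODE annotation (the mm9 build), 5′ to 3′ on the gene's own strand, with the cysteine codon in capitals. The codon was located as the cysteine of a threonine-cysteine pair that follows leucine-proline by 3 residues, near the end of the protein.
Herc1: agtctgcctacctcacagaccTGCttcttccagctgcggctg
Herc2: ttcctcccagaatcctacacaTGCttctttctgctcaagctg
Herc3: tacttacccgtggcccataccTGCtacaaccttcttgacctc
Herc4: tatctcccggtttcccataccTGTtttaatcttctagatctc
Huwe1: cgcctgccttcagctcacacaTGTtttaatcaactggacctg
Ube3a: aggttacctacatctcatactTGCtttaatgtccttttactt
Nedd4: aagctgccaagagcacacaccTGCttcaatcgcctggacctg
Trip12: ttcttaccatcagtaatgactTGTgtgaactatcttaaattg
The codon of Herc1 lies in an exon at chr9:66355976-66355978 on the plus strand, that of Herc2 at chr7:63486281-63486283 (plus), Herc3 at chr6:58868814-58868816 (plus), Herc4 at chr10:62780135-62780137 (plus), Ube3a at chr7:66560199-66560201 (plus) and Trip12 at chr1:84721295-84721297 (minus), while in Huwe1 and Nedd4 an intron divides the codon. The last 350 residues of the translated transcripts, which hold the HECT domain, were aligned, and identity was taken over aligned residue pairs with gaps left out. Herc1 was 49.8% identical to Herc2 (161 of 323 pairs) and 27.6% to 31.2% identical to the other 6. Herc3 and Herc4 were 65.4% identical, and Huwe1 and Nedd4 50%, so the closest relative of Herc1 in this stretch was Herc2.

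The genes fall into a group of very long mRNAs and a group of shorter ones. Herc1 (ENSMUSG00000038664, chromosome 9 from 66198257 to 66356582) has a longest coding transcript of 15153 bases, Herc2 (ENSMUSG00000030451, chromosome 7 from 63305525 to 63487164) of 15342 bases and Huwe1 (ENSMUSG00000025261, chromosome X from 148235350 to 148369960) of 14579 bases. Trip12 (ENSMUSG00000026219, chromosome 1 from 84717764 to 84835879) has 9632 bases, and Herc3, Herc4, Ube3a and Nedd4 have between 3922 and 5278. Ube3a (ENSMUSG00000025326, chromosome 7 from 66484122 to 66562097) lies on the same chromosome as Herc2, and Nedd4 (ENSMUSG00000032216, chromosome 9 from 72510364 to 72597649) on that of Herc1. Herc3 (ENSMUSG00000029804) lies on chromosome 6 from 58781459 to 58870392 and Herc4 (ENSMUSG00000020064) on chromosome 10 from 62706659 to 62780622. Exons of another annotated gene overlap 6.07% of the exons of Herc4, 1.15% of those of Herc1 and 0.323% of those of Huwe1, and none of the other 5. The reads were counted without regard to strand, so reads of the antisense RNA that is known to run across Ube3a in neurons cannot be told from those of Ube3a itself.

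Levels are given in CPM (counts scaled to a common total of reads on genes) after TMM normalization, and counts of these genes ran from 373 to 8830 reads per sample. Compared per kb of the longest coding transcript, Nedd4 had the highest level in the shNT samples, with 45.0 ± 9.64 CPM per kb (SD, n = 5), followed by Ube3a with 23.7 ± 1.70 and Herc3 with 18 ± 4.60 CPM per kb. Each of these was above the next in 5 of 5 shNT samples, and Herc3 was above Trip12 in 5 of 5. Trip12 had 6.58 ± 3.33 CPM per kb, Herc4 4.95 ± 0.803, Huwe1 4.92 ± 0.728, Herc2 4.52 ± 1.02 and Herc1 4.38 ± 0.818 CPM per kb (SD, n = 5). Neighbours among these 5 genes did not differ beyond their spread, since the mean log2 difference was 0.29 with an SD of 0.77 between Trip12 and Herc4, 0.01 with 0.39 between Herc4 and Huwe1, 0.14 with 0.18 between Huwe1 and Herc2 and 0.04 with 0.17 between Herc2 and Herc1. All annotated exons of Herc1, over all its transcripts, come to 27464 bases. Per kb of all annotated exons Herc1 was again lowest, at 2.42 ± 0.451 CPM per kb, and Huwe1 moved below Herc2. By either length the longest mRNAs, Herc1, Herc2 and Huwe1, had the lowest levels. How evenly reads covered long and short mRNAs was not tested, so levels of genes of unlike length may not compare directly.

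**Figure D1:**
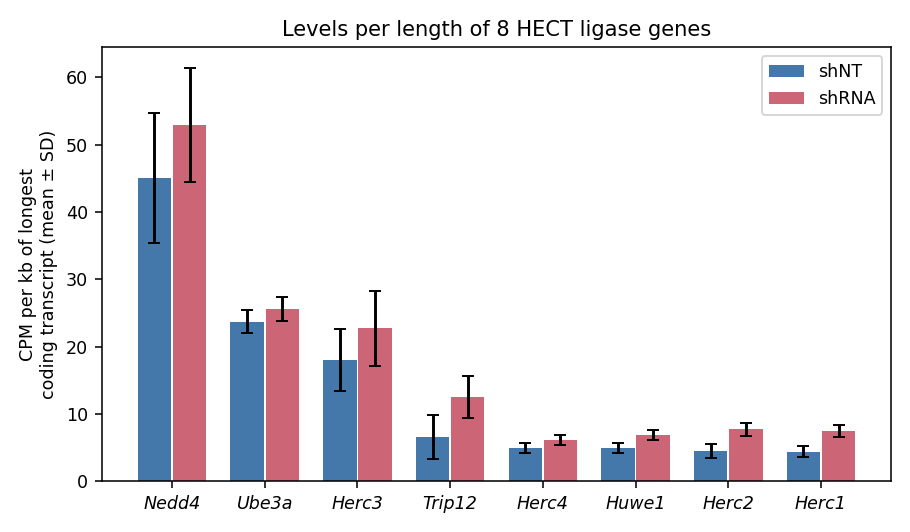
Mean level of each gene in CPM per kb of its longest coding transcript, with bars for 5 shNT and 4 shRNA samples and whiskers for the SD. Nedd4, Ube3a and Herc3 stand above the other 5 genes, and Herc1 is lowest in the shNT samples at 4.38.

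Among the samples, 18281719 to 34578837 reads were counted on genes, and reads outside annotated exons made up 9.76% to 27.2% of uniquely aligned reads. That share was highest in shRNA replicate 4 (27.2%), shRNA replicate 1 (19.8%) and shNT replicate 2 (18.6%), against 9.76% to 12.5% in the other 6. The PV IN markers were present in every sample, with a summed level of 5430 to 8780 CPM in the shNT samples and 3190 to 7670 CPM in the shRNA samples over 13 genes, of which 0 had a positive log2 fold change and 0 were called. Markers of pyramidal neurons (9 genes) summed to 771 to 1690 CPM with shNT and 1750 to 2170 CPM with shRNA, without overlap (exact two-sided permutation test, p = 0.0238), and 8 of 9 had a positive log2 fold change with 1 called, Grik4 (1.17, edgeR FDR = 0.0403). Astrocyte markers (10 genes) summed to 5570 CPM in shRNA replicate 4, against 1080 to 1680 CPM in the other samples, and 10 of 10 had a positive log2 fold change with 0 called (exact two-sided permutation test of the sum, p = 0.0238). Endothelial markers (8 genes) were also highest in shRNA replicate 4, at 758 CPM against 57.3 to 284 CPM, and microglial markers (8 genes) summed to 69.8 to 124 CPM with shNT and 107 to 123 CPM with shRNA. Oligodendrocyte markers (8 genes) summed to 784 to 2430 CPM with shNT and 1490 to 3090 CPM with shRNA, and those of granule cells (6 genes) to 127 to 202 CPM and 191 to 233 CPM. Positive log2 fold changes were found in 8 of 8 oligodendrocyte, 5 of 6 granule cell, 7 of 8 endothelial and 5 of 8 microglial markers, with 0 called. The median log2 fold change was -0.37 over the PV IN markers and from 0.21 (microglia) to 1.38 (astrocytes) over the other lists. Ablim3 itself had 16.9 ± 5.16 CPM with shNT (SD, n = 5) and 18.5 ± 3.42 CPM with shRNA (SD, n = 4), which does not check the labels because the shRNA was delivered to DG and the RNA came from CA3/CA2. In such pulldowns a larger share of a cell type and more RNA per cell cannot be told apart. The part of these marker and read shares in the results below was not tested unless a value is given.

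Herc1 was upregulated in the shRNA samples. It had 81.1, 77.0, 64.3, 53.0 and 56.4 CPM in shNT replicates 1 to 5, against 101, 101, 120 and 128 CPM in shRNA replicates 1 to 4. The lowest shRNA value was above the highest shNT value, which was that of replicate 1. The means were 66.4 ± 12.4 CPM with shNT (SD, n = 5) and 113 ± 13.7 CPM with shRNA (SD, n = 4), a 1.70-fold change (log2 fold change 0.76, SE 0.16, edgeR FDR = 0.0433). The call was lost when any of shNT replicates 3, 4 or 5 or shRNA replicates 1, 3 or 4 was left out, with edgeR FDRs up to 0.169. SE is the standard error, and edgeR FDR is the p-value of edgeR's quasi-likelihood test after Benjamini-Hochberg adjustment across the 15069 genes. Genes were called where this FDR was below 0.05 and the groups differed 1.5-fold or more. Herc1 was chosen by the study on these samples, so its call is not independent evidence of its direction. Beyond sequencing, the paper reports higher Herc1 by qPCR in activated CA3/CA2 PV INs. It also reports more PV IN synapses in CA3 and CA2 after viral upregulation of Herc1. Herc1 was the single member called, 1 of 8 (12.5%), where 1.74% of all genes tested were called upregulated, and 0.0133% downregulated. Since that member is the gene the study chose on these samples, the 12.5% is not evidence about the family. Among genes with 15 kb of exons or more, to which Herc1, Herc2 and Huwe1 belong, 7.05% were called upregulated.

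Herc2, the closest relative of Herc1, missed the threshold by a small margin. It had 80.5, 91.1, 56.5, 56.0 and 62.8 CPM in shNT replicates 1 to 5, against 117, 100, 119 and 136 CPM in shRNA replicates 1 to 4. The groups did not overlap, with shRNA replicate 4 highest as for Herc1. The log2 fold change was 0.77 (SE 0.17) and the edgeR FDR 0.0503. Huwe1, a giant ligase with substrates in DNA repair and cell death, had 86.9, 77.1, 67.4, 59.1 and 68.2 CPM in shNT replicates 1 to 5, against 97.4, 88.3, 104 and 114 CPM in shRNA replicates 1 to 4. Its groups did not overlap either, and the log2 fold change was 0.49 (SE 0.14, edgeR FDR = 0.0655), which is below 1.5-fold. In Herc1, Herc2 and Huwe1 the shRNA values were thus all above the shNT values, as in 8.97% of all genes tested, while 6.68% had all shRNA values below.

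Trip12, which acts in chromatin and the DNA damage response, had the largest log2 fold change of the 8 and the largest SE. It had 115, 71.4, 55.0, 37.0 and 38.3 CPM in shNT replicates 1 to 5, against 107, 114, 164 and 95.7 CPM in shRNA replicates 1 to 4. The groups overlapped through shNT replicate 1, which lay above 3 of the 4 shRNA samples. The log2 fold change was 0.92 (SE 0.32) and the edgeR FDR 0.0816, so Trip12 was not called. Without shNT replicate 1 its log2 fold change was 1.25 (edgeR FDR = 0.0268), a call, in a fit that called 6.68% of all genes upregulated. Leaving out any other single sample gave Trip12 0.66 to 1 with no call (edgeR FDR 0.0983 to 0.214).

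The 4 members with shorter mRNAs had log2 fold changes from 0.11 to 0.34, and none was called. Ube3a had 126.02, 105.94, 125.23, 126.4 and 121.39 CPM in shNT replicates 1 to 5, against 117, 138, 135 and 131 CPM in shRNA replicates 1 to 4, a log2 fold change of 0.11 (SE 0.12, edgeR FDR = 0.528). Nedd4 had 289, 167, 283, 235 and 212 CPM with shNT and 228, 314, 319 and 255 CPM with shRNA, a log2 fold change of 0.23 (SE 0.19, edgeR FDR = 0.394). The groups overlapped in both genes, and in both shNT replicate 2 was the lowest of all samples. Herc3 had 103, 58.8, 112, 76.4 and 75.4 CPM with shNT and 88.9, 131, 130 and 80.7 CPM with shRNA, a log2 fold change of 0.34 (SE 0.22, edgeR FDR = 0.284). Herc4 had 18.2, 17.1, 23.0, 22.5 and 16.2 CPM with shNT and 22.0, 27.3, 26.2 and 21.4 CPM with shRNA, a log2 fold change of 0.32 (SE 0.16, edgeR FDR = 0.169). In Herc3, Herc4, Nedd4 and Ube3a shRNA replicates 1 and 4, the samples of their group with most reads outside exons, were the lowest 2 of the 4 shRNA samples. With that share as a covariate the log2 fold change was 0.66 for Herc3 (edgeR FDR = 0.0898), 0.46 for Nedd4 (edgeR FDR = 0.121), 0.48 for Herc4 (edgeR FDR = 0.104), 0.18 for Ube3a (edgeR FDR = 0.287) and 0.66 for Herc1 (edgeR FDR = 0.0887), so that none of these passed.

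**Figure D2:**
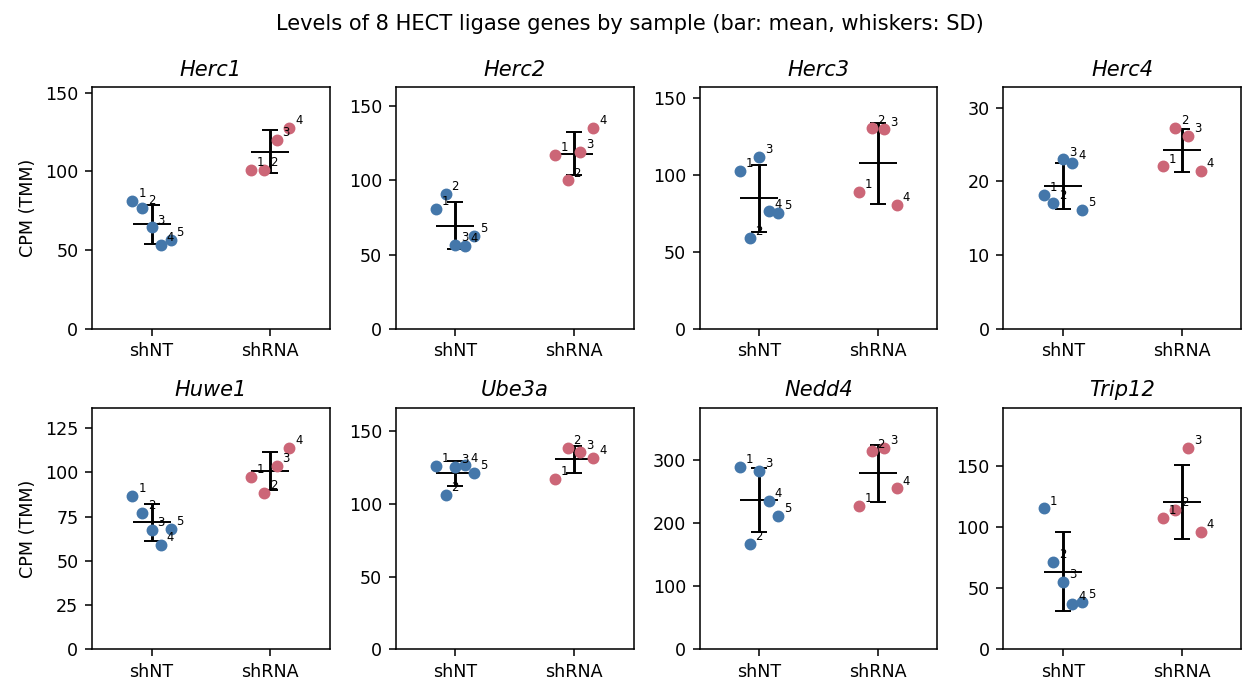
Level of each gene in CPM (TMM) in every sample, with replicate numbers, for 5 shNT and 4 shRNA samples, where bars are means and whiskers SD. The groups do not overlap in Herc1, Herc2 and Huwe1, and shNT replicate 1 (115 CPM) lies within the shRNA range in Trip12.

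All 8 members had a positive log2 fold change, as had 57.9% of all genes tested, and their median was 0.41 against 0.11 over all genes. At an FDR under 0.1 there were 4 of 8 (Herc1, Herc2, Huwe1 and Trip12), where 14.7% of all genes were higher at that FDR and 8.58% lower. The likelihood ratio test and exact test of edgeR, DESeq2 and limma voom each called Herc1, Herc2 and Trip12, 3 of 8, and no member lower. Of all genes these called 11.2%, 11%, 10.1% and 15.3% upregulated and 3.6%, 3.54%, 5.6% and 4.1% downregulated. As a share of the 8 members together, Herc1 went from 9.08% ± 1.45 (SD, n = 5) to 11.4% ± 1.42 (SD, n = 4). Its ranges overlapped, with 7.96% to 11.6% for shNT and 9.97% to 13.3% for shRNA. Trip12 went from 8.39% ± 3.2 to 12% ± 2, Herc2 from 9.58% ± 2.47 to 12% ± 2.05 and Huwe1 from 9.83% ± 1.23 to 10.2% ± 1.47. Ube3a went from 16.7% ± 2.09 to 13.2% ± 0.733 and Nedd4 from 32.2% ± 4.32 to 28.0% ± 2.27, and the mean shares of Herc3 and Herc4 also fell. By name, 6 samples form a set YTa31 and 3 a set YTa32, and what these sets mark is not stated in the sources used here. Within YTa31, Herc1 had 64.3 to 81.1 CPM in 3 shNT samples and 101 to 120 CPM in 3 shRNA samples, a log2 fold change of 0.50 (edgeR FDR = 0.402). Within YTa32 it had 53.0 and 56.4 CPM in the shNT samples and 128 CPM in the single shRNA sample, which gives no test, and with the set as a term in the fit its log2 fold change was 0.75 (edgeR FDR = 0.0420).

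The change in Herc1 was then set against that of each relative through the log2 ratio of both genes in the same sample, which does not depend on how libraries are scaled. The ratios were fitted with limma over all genes tested, with p-values adjusted over all genes, and tested by exact two-sided permutation of the group labels (unadjusted, 7 relatives, smallest possible p = 0.00794). Herc1 rose more than Ube3a, by 0.66 on the log2 scale (95% interval 0.14 to 1.19, limma adjusted p = 0.0350, exact permutation p = 0.0159). The log2 ratio of Ube3a to Herc1 was 0.46 to 1.25 in the shNT samples and 0.04 to 0.45 in the shRNA samples, which did not overlap. This was 1 relative of 7, whereas 48.3% of all genes fell against Herc1 by the same test and 1.28% rose. With the name set as a block the adjusted p for Ube3a was 0.0521 (limma), which did not pass. It also failed to pass, at limma adjusted p-values up to 0.0931, when any of shNT replicates 3, 4 or 5 or shRNA replicates 1, 3 or 4 was left out.

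No difference was detected between Herc1 and Herc2. Their difference in log2 change was -0.01 (95% interval -0.49 to 0.46, limma adjusted p = 0.973, exact permutation p = 0.944), and the log2 ratio of Herc2 to Herc1 lay between -0.19 and 0.24 in all 9 samples. Against Huwe1 the change in Herc1 was larger by 0.28 (95% interval -0.19 to 0.74, limma adjusted p = 0.314). The log2 ratio of Huwe1 to Herc1 varied little, from 0 to 0.27 with shNT and from -0.21 to -0.05 with shRNA, and because the groups did not overlap the exact permutation test of this ratio alone gave p = 0.00794. The change in Herc1 exceeded that of Nedd4 by 0.53 (95% interval -0.07 to 1.12), Herc4 by 0.45 (95% interval -0.08 to 0.97) and Herc3 by 0.43 (95% interval -0.16 to 1.02), and was 0.25 below that of Trip12 (95% interval of Herc1 minus Trip12 -0.82 to 0.31), with limma adjusted p-values from 0.132 to 0.452. These intervals include 0 but also differences above 0.5, so they leave the sizes undetermined.

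**Figure D3:**
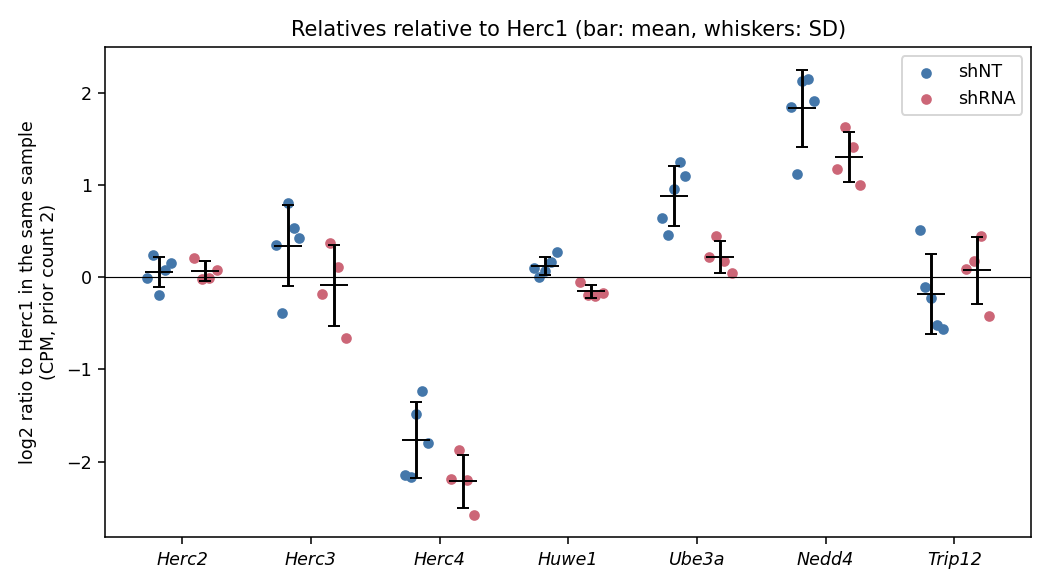
Log2 ratio of each relative to Herc1 in the same sample for 5 shNT and 4 shRNA samples, where bars are means and whiskers SD. The ratio of Herc2 stays near 0 in both groups, and those of Ube3a and Huwe1 are lower in every shRNA sample than in any shNT sample.

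Across the genes tested that have an annotated exon length the median log2 fold change was higher in classes of longer exon length, and the 3 members with the longest exons lay in the class with the highest median. The median was -0.31 in 3072 genes with under 2 kb of exons, 0.01 at 2 to 4 kb (5362 genes), 0.26 at 4 to 8 kb (5030 genes), 0.46 at 8 to 15 kb (1427 genes) and 0.72 at 15 kb and over (156 genes). The share of genes called upregulated in these classes was 0.0977%, 0.746%, 2.43%, 6.03% and 7.05%, in the same order. Herc1 (0.76) and Herc2 (0.77) lay close to the median of the longest class and Huwe1 (0.49) below it, within its middle range of 0.42 to 1.13. Herc3 (0.34), Nedd4 (0.23) and Ube3a (0.11) belong to the 4 to 8 kb class and lay within its middle range of -0.03 to 0.68. Herc4 (0.32), in the 2 to 4 kb class, lay above the class median of 0.01 and within the middle range of -0.26 to 0.48. Trip12 (0.92) was just above the upper quartile of its class (0.91). With each sample's trend on exon length removed, the log2 fold change of Herc1 was -0.04 (SE 0.13, edgeR FDR = 0.864), and 0 of the 8 members and 0 of all genes passed. At an unadjusted p under 0.05 there were then 0 members and 4307 genes. Huwe1 (-0.26) and Ube3a (-0.12) turned negative in that fit, Trip12 kept 0.56, and the difference between Herc1 and Ube3a was 0.07 (limma adjusted p = 0.684).

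**Figure D4:**
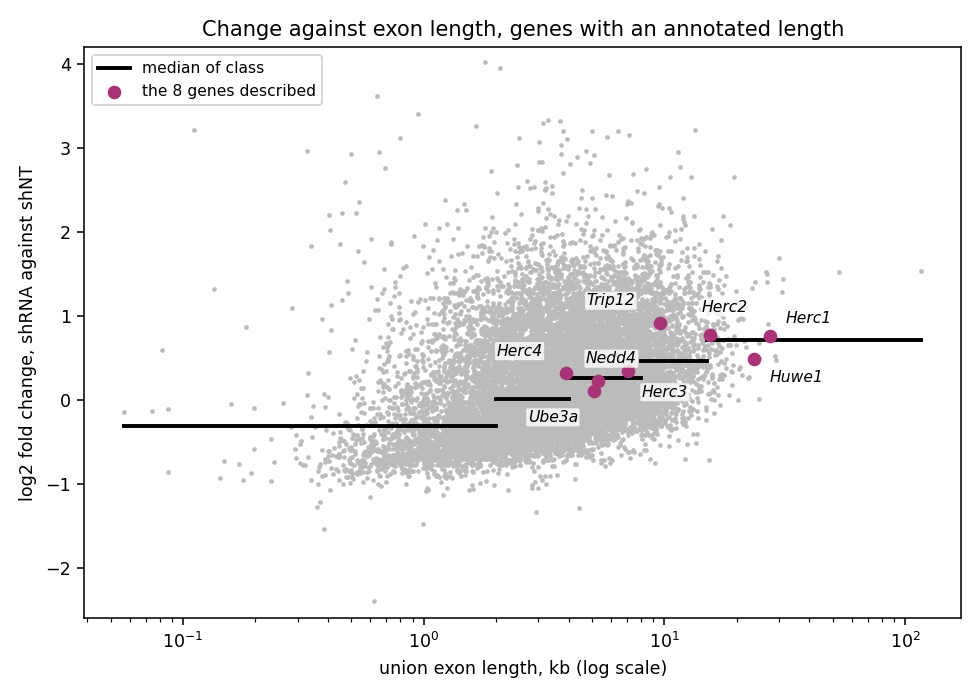
Log2 fold change of the genes tested that have an annotated exon length (grey) against union exon length in kb on a log axis, with the 8 members as large points and the median of each of 5 length classes as a line. Medians run from -0.31 to 0.72, and Herc1 and Herc2 lie near the last.

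The other 19 HECT genes of the mouse, listed by name, mostly had positive values too. A positive log2 fold change was found in 18 of 19, with a median of 0.46, and 2 were called upregulated (10.5%) against 1.74% of all genes. Exon lengths of the 19 run from 4561 to 16416 bases, and the length classes covering that range had 2.43% to 7.05% of genes called upregulated. Nedd4l, a WW-domain ligase that removes sodium channels from the membrane, had 48.1, 39.8, 46.3, 27.9 and 28.7 CPM in shNT replicates 1 to 5, against 77.3, 72.5, 95.8 and 86.9 CPM in shRNA replicates 1 to 4. The groups did not overlap, and the log2 fold change was 1.12 (SE 0.19, edgeR FDR = 0.0403). Hectd2 had 9.32, 8.90, 8.75, 5.45 and 4.42 CPM with shNT and 24.6, 17.9, 16.4 and 18.8 CPM with shRNA. Its log2 fold change of 1.40 was the largest of the 27 HECT genes (SE 0.24, edgeR FDR = 0.0403), and an antisense gene overlaps 22.8% of its exons. Both calls were lost when any of shNT replicates 3, 4 or 5 or shRNA replicates 1 or 3 was left out, and within YTa31 alone or with library size only, upper quartile scaling, filterByExpr, the share outside exons as covariate or a length trend removed. G2e3 (log2 fold change 1.06, edgeR FDR = 0.0503) had the same FDR as Herc2, and Wwp1 (-0.16, edgeR FDR = 0.381) was the single negative value.

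By family, 7 of the 8 other NEDD4-family genes had a positive log2 fold change, with a median of 0.48 and 1 called (Nedd4l), against 0.23 in Nedd4 itself. All 10 HECT genes outside the HERC and NEDD4 families were positive, with a median of 0.31 and 1 called (Hectd2). Herc6, the remaining HERC gene and one induced by interferon, was low, with 2.30 ± 0.946 CPM with shNT (SD, n = 5) and 4.78 ± 2.58 CPM with shRNA (SD, n = 4), and was not called (log2 fold change 1.05, edgeR FDR = 0.0962). The 27 HECT genes together have a median exon length of 7886 bases against 3622 over all genes tested.

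**Figure D5:**
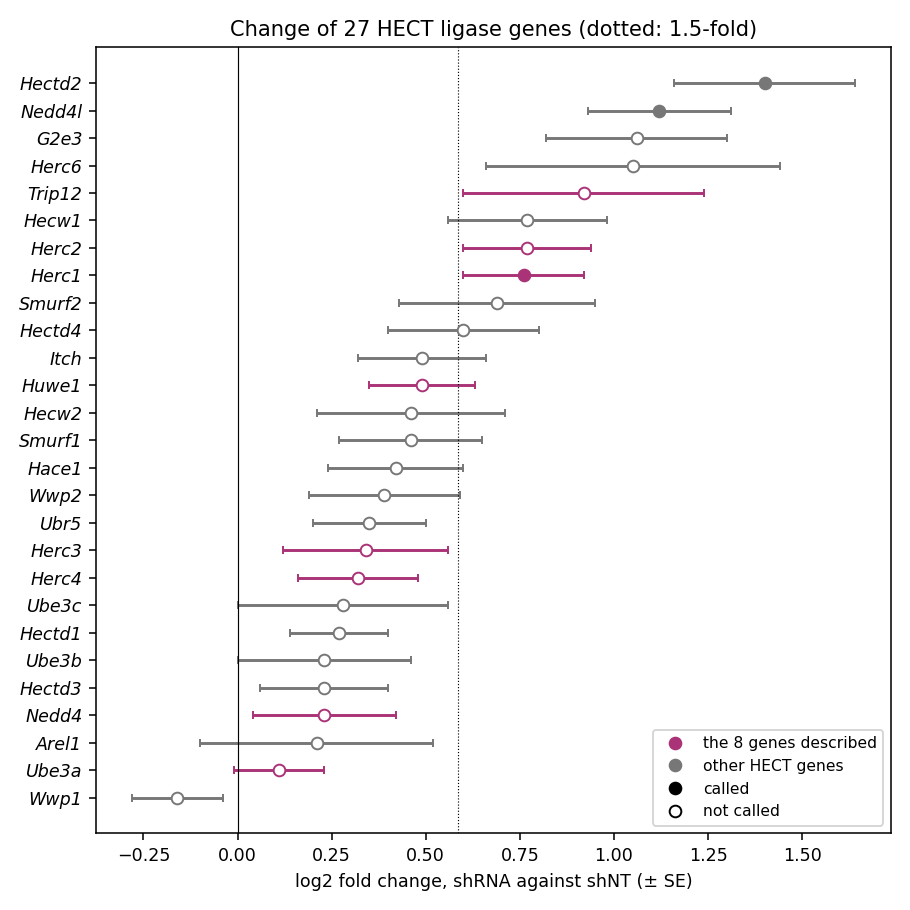
Log2 fold change of 27 HECT genes in shRNA against shNT samples with standard errors, where filled points passed the call and the dotted line marks 1.5-fold. Hectd2, Nedd4l and Herc1 were called, and Wwp1 alone lies below 0.

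Genes that act with these ligases were mixed in sign. Of 16 partners listed by name (E1 and E2 enzymes, ubiquitin genes, NEDD4-family activators and partners of Herc2 and Trip12), 12 had a negative log2 fold change, with a median of -0.39, and 0 were called in either direction by the edgeR quasi-likelihood test. At an unadjusted p under 0.05 there were 9 lower and 1 higher, where 13.4% and 20.7% of all genes were, and DESeq2 called 2 lower and 0 higher, the edgeR likelihood ratio test 1 lower and 1 higher, and limma voom 0 lower and 1 higher. The E1 enzymes, which activate ubiquitin for all of these ligases, had positive values, 0.23 in Uba1 (edgeR FDR = 0.588) and 0.24 in Uba6 (edgeR FDR = 0.401), as had Usp7 (0.27, edgeR FDR = 0.193). All 4 ubiquitin genes were negative, with the lowest value, -0.70, in Rps27a (edgeR FDR = 0.0833). All 6 E2 enzymes were negative, among them Ube2e3 (-0.41, edgeR FDR = 0.0712) and Ube2l3 (-0.39, edgeR FDR = 0.139), which works with HECT ligases and shares 43.7% of its exons with antisense genes. Ndfip1 (-0.47, edgeR FDR = 0.108) and Ndfip2 (-0.48, edgeR FDR = 0.0955), which activate NEDD4-family ligases, were also negative, whereas Neurl4, a binding partner of Herc2, had the largest positive value (0.60, edgeR FDR = 0.0822). The median exon length was 1823.5 bases in the ubiquitin genes and 3523 bases in the E2 enzymes, and over all genes tested the classes of under 2 kb and 2 to 4 kb had medians of -0.31 and 0.01.

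The profile of Herc1 over the 9 samples was compared with that of 9487 other genes averaging at least 10 CPM, by the root mean square difference of log2 levels centred on each gene's mean. The closest were Dmxl2 (0.0912), Hcfc1 (0.101), Erbb2ip (0.107), Unc13a (0.107) and Klhl23 (0.110). Dmxl2, a large protein of synaptic vesicles that acts with the proton pump, had a log2 fold change of 0.79 and was called (edgeR FDR = 0.0403), and the other 4 lay between 0.60 and 0.74 and were not called (edgeR FDR 0.0530 to 0.0731). Among the relatives Herc2 was nearest to Herc1, at 0.127 with 21 genes closer, and Huwe1 next, at 0.159 with 63 closer. The other 5 stood at 0.375 (Trip12) to 0.445 (Herc3), with 1817 or more genes closer.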

How the data were processed

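Ribosome-associated RNA was immunoprecipitated from CA3/CA2 of PV-Cre; Rpl22HA/HA mice, and libraries were made with the SMARTer v4 kit and sequenced with 50-base reads. The authors aligned reads with STAR to the mm9 transcriptome and assigned reads to genes with HTSeq 0.6.0, ignoring strand, and the deposited values are these raw counts, 1 file per sample. The annotation release is not given in the sources used here, and names, positions and lengths came from the GENCODE annotation of NCBIM37, which matched 37205 of 37620 identifiers. Rows that name no gene were left out of library sizes, and reads outside exons made up 9.76% to 27.2% of uniquely aligned reads. Groups came from the sample titles.

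Genes that reached 1 CPM in any sample were tested in R 4.3.3 with edgeR 4.0.16 (TMM, quasi-likelihood test, group as the only term, Benjamini-Hochberg adjustment), since the study states edgeR without the kind of test. The biological coefficient of variation was 0.303. Log2 levels used a prior count of 2. Ratios to Herc1 were fitted with limma 3.58.1, and DESeq2 1.42.0, other edgeR tests, normalizations, filters, blocks, covariates, length trends and samples left out served as alternatives. The methods were tested on simulated data. Named genes were the 8 members, of each list the called genes or those at the ends of the range, and the 5 genes most like Herc1. The members and lists were chosen with earlier results of these data known. Removal of trends on transcript and gene length was added after seeing the data. Depth per sample was 18281719 to 34578837 counts on genes, and counting error was minor against the differences among samples. Identities between members came from translated coding transcripts.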

Additional observations from a re-analysis of the deposited data

Results flagged for a closer look

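Dixon's test was applied to 50 sets of values of 1 group each, to find single samples at a distance from the others. It marked 4, and chance alone marks about 2.5 (1 in 20). shNT replicate 2 had the lowest Ube3a level of its group, 106 CPM against 121 CPM or more in the other 4 shNT samples. The same sample had 18.6% of its uniquely aligned reads outside annotated exons, against 9.76% to 11.3%, and a summed level of PV IN markers of 5430 CPM, against 7690 to 8780 CPM. Without shNT replicate 2 the log2 fold change of Ube3a was 0.07 and that of Herc1 0.82. shRNA replicate 4 had a summed level of astrocyte markers of 5570 CPM, against 1420 to 1680 CPM in the other 3 shRNA samples, and the highest levels of Herc1, Herc2 and Huwe1 of any sample. Without shRNA replicate 4 the log2 fold change of Herc1 was 0.67 (edgeR FDR = 0.0830), and no more than these values was tested.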

How the results depend on the processing

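Less conservative tests called more genes. Against 1 of the 8 members, 262 upregulated genes, 2 other HECT genes and 0 partners or RCC1-repeat genes, the edgeR likelihood ratio test called 3, 1688, 5 and 1, the edgeR exact test 3, 1659, 5 and 1, DESeq2 3, 1519, 4 and 1. limma voom with sample weights called 3, 2301, 8 and 4. Without a filter there were 2 members and 501 genes, and without shNT 2 and shRNA 4 there were 2 members, 678 genes and 1 partner or RCC1-repeat gene. In the edgeR quasi-likelihood test the counts of members, genes and other HECT genes were all 0 with library size only (Herc1 log2 fold change 0.81, 5258 genes at an unadjusted p under 0.05), upper quartile scaling (0.76, 5360), filterByExpr (0.69, 5139), YTa31 only (0.50, 1493), the share outside exons as covariate (0.66, 4479), and the trend on exon length (-0.04, 4307), coding transcript length (0.05, 4101) or gene length (0.41, 4724) removed. With DESeq2 size factors Herc1 had 0.72 (edgeR FDR = 0.0504) and 0 members were called. At an unadjusted p under 0.05 there were then 4 of 8 members and 5183 of 15069 genes. Removing a length trend also turned Huwe1 (-0.26 by exons, -0.22 by coding transcript), Ube3a (-0.12, -0.24, and -0.19 by gene length) and Nedd4 (-0.10 by coding transcript, -0.06 by gene length), and by exons Herc1 minus Herc3 (-0.04), Herc4 (-0.24) and Nedd4 (-0.05). The median over all genes was 0.11 with TMM, 0.17 with library size only, 0.12 with upper quartile scaling and 0.07 with DESeq2 size factors. Of 7 relatives, 0 passed against Herc1 with the name set block or the exon length trend removed, and 2 passed without shNT 2 and shRNA 4 or by exact permutation. The cause of these changes was not tested.

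Deviations of same-numbered samples from their group means correlated at -0.267, -0.641, 0.486 and -0.181. These values show no general pairing by replicate number, but so few cannot exclude it. With a replicate block Herc1 had 0.72 (edgeR FDR = 0.322), and 0 members, 29 genes, 0 other HECT genes and 0 relatives passed. At an unadjusted p under 0.05 there were then 3 of 8 members and 1882 of 15069 genes. Leaving out 1 sample at a time gave Herc1 0.61 to 0.84, 0 to 3 members, 0 to 1007 genes, 0 to 5 other HECT genes, 0 to 1 partner or RCC1-repeat gene and 0 to 3 relatives, and Herc1 minus Herc2 -0.06 to 0.05, positive without shNT 1 (0.01), shNT 3 (0.05) or shRNA 1 (0.04). Ube3a minus Herc1 kept its direction throughout.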

Other observations

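The repeats that Herc1 and Herc2 share with RCC1 also occur in proteins without a HECT domain, and 12 such genes were listed by name. They were mixed in sign, with 8 positive and 4 negative log2 fold changes, a median of 0.15 against 0.11 over all genes, and 0 called by the edgeR quasi-likelihood test. At an unadjusted p under 0.05, 4 were higher and 2 lower, where 20.7% and 13.4% of all genes were. DESeq2 called 1 higher and limma voom 3, where they called 10.1% and 15.3% of all genes upregulated. Nek9, a mitotic kinase, had 20.7 ± 2.44 CPM with shNT (SD, n = 5) and 30.3 ± 3.41 CPM with shRNA (SD, n = 4), without overlap (log2 fold change 0.55, edgeR FDR = 0.0591). Mycbp2, a giant ligase of axons and synapses that is not of the HECT type, had a log2 fold change of 0.42 (edgeR FDR = 0.311). Rcc1 itself (-0.49, edgeR FDR = 0.119) and Sergef (-0.44, edgeR FDR = 0.109) had the lowest values. Nek8 had the highest value (1.19, edgeR FDR = 0.0882) at a low level of 1.78 ± 0.231 CPM with shNT (SD, n = 5) and 4.10 ± 3.36 CPM with shRNA (SD, n = 4).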
